A study of Mus musculus with 12 samples.

Results

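The 40 genes described here act in the G2 phase and in mitosis, the part of the cell cycle in which a cell that has copied its DNA condenses its chromosomes, builds a spindle and divides. They were chosen by name, by a rule that uses no measured value, but with earlier results of these data known. All 40, called members here, were found among the 46983 gene symbols measured. RNA was sequenced from mouse hearts that had been separated into a non-cardiomyocyte fraction (NonCM) and a cardiomyocyte fraction (CM). The Wls fl/fl group carried MCM/+ together with floxed alleles of Wls, and the control group carried MCM/+ alone, both on a strain labelled BL6/C57. Wls encodes Wntless, a carrier that Wnt proteins need on their way out of the cell. MCM commonly stands for MerCreMer, a form of Cre recombinase that tamoxifen switches on, and the labels do not name the promoter that drives it. All mice, controls included, received 3 tamoxifen doses from postnatal day 1 to day 3 and a myocardial infarction at postnatal day 2. Hearts were taken 2 weeks after surgery, although the labels call the cells adult, and 3 hearts were collected per condition. Each of the 4 groups of fraction and genotype holds 3 libraries.

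In most growing tissues these genes are switched on together late in the cell cycle. The kinase Cdk1 with its B-type cyclins starts mitosis, Aurora and Polo-like kinases and kinesin motors build the spindle, checkpoint kinases hold chromosomes until all are attached, and anillin and its partners pinch the cell apart. Mouse cardiomyocytes largely leave the cell cycle in the first weeks after birth, while fibroblasts, endothelial cells and macrophages of an injured heart can still divide. A cardiomyocyte can also run through mitosis without splitting, which leaves it with an extra nucleus, so RNA of these genes does not count divisions.

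The libraries held 1160146 to 10281214 reads, recovered from the deposited values. NonCM control replicate 1 was the shallowest, so that 1 read in it equals a normalized read count of 5.54, against 0.636 to 0.763 in the other NonCM libraries. In each group replicate 3 lay close to a weighted mean of replicates 1 and 2, with residuals of 1.01 to 1.04 times the counting variance. Other libraries, set against the remaining pair of their group, gave 1.13 to 2.01 times. Results are therefore also given without replicate 3. Nothing in the labels ties a library to a heart, so the p-values reflect only how these libraries vary, which may be technical. Wls itself was lower in CM of Wls fl/fl hearts, with normalized read counts of 91.6, 57.3 and 93.9 against 243, 201 and 210 in CM of control hearts (log2 change -1.45, limma adjusted p = 0.00389). The estrogen receptor gene Esr1, whose hormone-binding part is built into MerCreMer, had 1686, 1298 and 1596 in CM of Wls fl/fl hearts against 14.3, 33.3 and 19.5 in CM of control hearts, although both groups are labelled MCM/+. In NonCM, Wls had 356, 323 and 316 in Wls fl/fl hearts against 427, 374 and 407 in control hearts. Its log2 change there was -0.28 and was not called (limma adjusted p = 0.0831). Esr1 in NonCM had 797, 659 and 714 in Wls fl/fl hearts against 88.7, 33.6 and 36.9 in control hearts. That was a log2 change of 3.88 (limma adjusted p = 0.000865). The effects of losing Wls and of whatever differs with Esr1 cannot be told apart. NonCM libraries also held cardiomyocyte RNA, since 12 cardiomyocyte markers together took 61246 to 63207 RPM (reads for every 1000000 reads of a library) in NonCM of Wls fl/fl hearts and 70859 to 77256 in NonCM of control hearts.

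The 40 genes together took a larger share of the NonCM reads in Wls fl/fl hearts than in control hearts. Their summed levels were 245, 246 and 242 RPM in NonCM of Wls fl/fl hearts, against 202, 177 and 182 in NonCM of control hearts. The groups did not overlap, and the means were 244 ± 1.95 RPM in Wls fl/fl hearts and 187 ± 13.2 RPM in control hearts (SD, n = 3 each), a ratio of 1.31. Exact 95% binomial intervals, which cover counting error only, ran from 232 to 256 over the Wls fl/fl libraries and from 168 to 191 over control replicates 2 and 3. For the shallow control replicate 1 the interval was 177 to 229. In CM the sums were 107, 102 and 106 RPM in Wls fl/fl hearts, against 98.2, 78.1 and 93.0 in control hearts (ratio 1.17). These sums did not overlap either, but their counting intervals did. The intervals ran from 94.0 to 116 over the Wls fl/fl libraries and from 70.7 to 106 over the control libraries. In bulk RNA, fewer cells of a type and less RNA per cell cannot be told apart, and the sums get no test because they run over a chosen list.

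A few genes weighed heavily in these sums. Cenpa, Cenpf and Smc4 held 37.4% to 39.7% of the members' reads in NonCM of Wls fl/fl hearts and 42.1% to 46.6% in NonCM of control hearts. In CM they held 62.8% to 66.2% in Wls fl/fl hearts and 66.8% to 72.0% in control hearts. These are shares of reads, with no allowance for gene length, and the 3 genes were singled out after their values were seen. The other 37 genes summed to 148, 149 and 151 RPM in NonCM of Wls fl/fl hearts against 108, 102 and 103 in NonCM of control hearts, a ratio of 1.43. In CM they summed to 38.6, 34.4 and 39.5 in Wls fl/fl hearts against 27.5, 25.9 and 30.8 in control hearts, a ratio of 1.34.

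**Figure D1:**
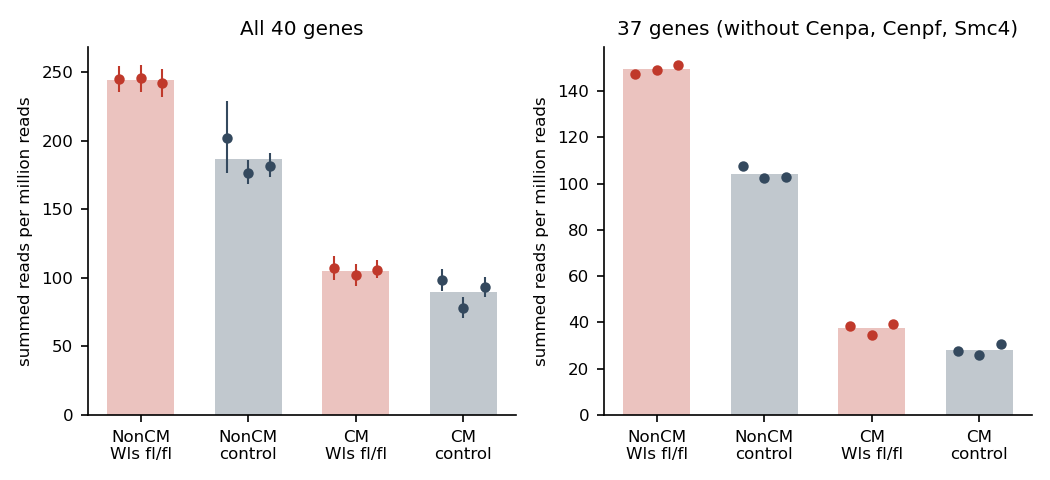
Summed reads of the 40 genes (left) and of the 37 without Cenpa, Cenpf and Smc4 (right), in RPM, for each library (points) of NonCM and CM, Wls fl/fl left of control, with bars at the group mean of 3 libraries. Lines on the left are exact 95% binomial intervals, and in both fractions the Wls fl/fl points lie above the control points.

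In NonCM, 28 of the 40 genes had a mean normalized read count of 10 or more over the 6 libraries and were tested. Of these, 26 (92.9%) were higher in Wls fl/fl hearts, against 53.2% of all 13271 genes tested. Their median log2 change, Wls fl/fl minus control on the log2(value + 1) scale, was 0.42 against 0.02 for all genes, and it ranged from -0.34 for Kif20a to 1.89 for Ckap2l. Mki67 and Top2a, 2 of the 28, passed limma's test as up at an adjusted p under 0.05, and 0 were called down. Over all genes limma called 2.47% up and 2.03% down. The 3 Wls fl/fl libraries lay above all 3 control libraries for 12 of the 28 members (42.9%), against 13.9% of all genes, and below them for 0. At an unadjusted p under 0.05, 6 members were higher (21.4%, against 10.5% of all genes) and 0 were lower. Counted in either direction, the members' share was still 21.4%, against 19.3% of all genes.

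The calls were few and depended on single libraries. By limma 5 members were called up without control replicate 1, the shallow library, namely Mki67, Top2a, Bub1b, Ccnb2 and Tpx2, and edgeR's quasi-likelihood test on all 6 libraries called the same 5. Of all genes, 6.57% were called up by limma without control replicate 1 and 5.73% by edgeR, against 2.47% by limma on all 6 libraries. Only Mki67 was called without Wls fl/fl replicate 1 or control replicate 2. None was called by limma without Wls fl/fl replicate 2, Wls fl/fl replicate 3 or control replicate 3. Few genes of any kind were called there, namely 83, 64 and 100 up and 18, 9 and 19 down of all 13271. On all 6 libraries limma called 328 up and 270 down. Without replicate 3 of both genotypes limma called 0 members and 0 genes of the whole table. EdgeR without replicate 3 of both genotypes called 0 members and, of all genes, 23 up and 4 down. The count of members with a higher value stayed between 24 and 27 of 28 over these settings, and their median between 0.34 and 0.49. In the authors' deposited table, 6 members had an adjusted p, and 1 of them, Mki67, was under 0.05 (adjusted p = 0.0124).

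**Figure D2:**
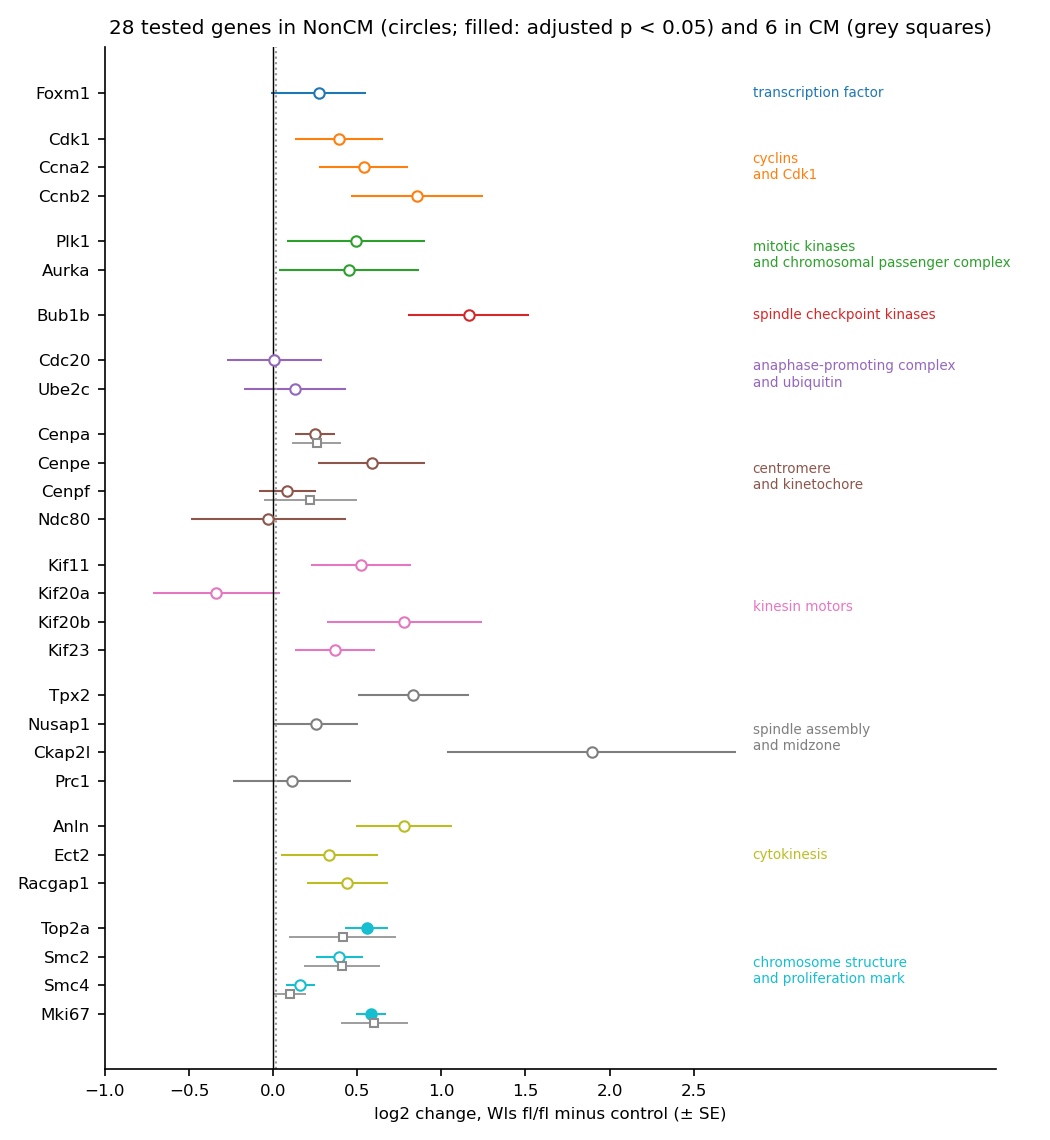
Log2 change, Wls fl/fl minus control on the log2(value + 1) scale, with its standard error, for the 28 members tested in NonCM (circles, grouped and coloured by role, filled where limma's adjusted p is under 0.05) and the 6 tested in CM (grey squares). Nearly all circles lie right of 0, the dotted line marks the median of all NonCM genes at 0.02, and Mki67 and Top2a are filled.

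Both called genes belong to chromosome structure. Mki67 encodes the Ki-67 protein, which coats mitotic chromosomes and is the usual stain for cycling cells. It had normalized read counts of 181, 166 and 179 in NonCM of Wls fl/fl hearts, against 116, 118 and 117 in NonCM of control hearts. Every Wls fl/fl library lay above every control library, and the gene rose by 0.58 on the log2 scale (SE 0.09, limma adjusted p = 0.0106). Top2a, the topoisomerase that untangles sister chromatids, had 93.5, 107 and 100 in Wls fl/fl hearts and 61.0, 67.9 and 75.3 in control hearts. Its groups were also apart, and it rose by 0.56 (SE 0.13, limma adjusted p = 0.0461). That call was at the margin, with adjusted p = 0.0504 under TMM scaling and 0.132 by DESeq2.

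The 2 condensin genes, whose proteins fold chromosomes for mitosis, did not pass the test. Smc2 had 76.9, 97.1 and 74.7 in Wls fl/fl hearts and 61.0, 64.8 and 61.6 in control hearts, without overlap (log2 change 0.39, SE 0.14, limma adjusted p = 0.166). Smc4 averaged 386 ± 35.4 in Wls fl/fl hearts and 345 ± 24.6 in control hearts (SD, n = 3 each), with a log2 change of 0.16 and overlapping groups.

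Foxm1, the transcription factor that drives many late cell cycle genes, did not separate the groups. It had 36.2, 28.6 and 41.9 in NonCM of Wls fl/fl hearts and 44.3, 22.9 and 23.9 in NonCM of control hearts, where the highest value came from the shallow replicate 1 (log2 change 0.27, SE 0.28, limma adjusted p = 0.654). Without that library the log2 change by limma was 0.57 (adjusted p = 0.0911). EdgeR on all 6 libraries gave 0.50 (adjusted p = 0.205), so neither called the gene.

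Of Cdk1 and the cyclins, the 3 tested members were all higher in Wls fl/fl hearts and 0 were called by limma. Cdk1, the kinase that starts mitosis, had 19.7, 20.6 and 30.6 in Wls fl/fl hearts and 16.6, 18.3 and 17.4 in control hearts. These groups did not overlap, yet Wls fl/fl replicate 3 stood well above the others (log2 change 0.39, SE 0.26, limma adjusted p = 0.457). Ccnb2, a B-type cyclin that activates Cdk1, had 21.6, 17.3 and 16.4 in Wls fl/fl hearts and 16.6, 9.15 and 5.79 in control hearts. The shallow control library touched the Wls fl/fl range (log2 change 0.86, SE 0.39, limma adjusted p = 0.275), and edgeR called the gene (log2 change 1.19, adjusted p = 0.0309). Ccna2, the A-type cyclin of S phase and G2, differed by 0.54, and its groups did not overlap. Ccnb1, the main mitotic cyclin, was below the filter, with 10.2, 3.99 and 8.22 in Wls fl/fl hearts and 11.1, 5.34 and 2.90 in control hearts, and its groups overlapped.

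The mitotic kinases were low in these libraries. Plk1, the Polo-like kinase, and Aurka, the Aurora kinase of spindle poles, were tested and differed by 0.49 and 0.45 with overlapping groups. Aurkb, the catalytic subunit of the chromosomal passenger complex, stayed under the filter at 10.2, 11.3 and 8.22 in Wls fl/fl hearts and 11.1, 9.15 and 5.79 in control hearts. Its partners Birc5 (survivin) and Cdca8 (borealin) and the kinase Melk were also under it. Birc5 was 1 of 2 such genes whose groups did not overlap, with 18, 7 and 20 reads in Wls fl/fl hearts and 0, 4 and 6 reads in control hearts.

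Of the spindle checkpoint kinases, which delay anaphase until chromosomes are attached, 1 of 3 was tested. That was Bub1b, which encodes BubR1 and had 16.5, 24.6 and 17.2 in Wls fl/fl hearts and 5.54, 11.4 and 7.97 in control hearts. Its groups were apart (log2 change 1.16, SE 0.36, limma adjusted p = 0.111), and edgeR called it (log2 change 1.04, adjusted p = 0.0453). In control replicate 1 its value was a single read. Bub1 and Ttk, the other checkpoint kinases, were under the filter, with means of 6.89 and 6.27 in Wls fl/fl hearts and 2.71 and 5.58 in control hearts, and their groups overlapped.

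Genes of the anaphase-promoting complex, the ubiquitin ligase that ends mitosis, had the smallest median log2 change of the 10 roles, over tested genes. Cdc20, its activator, averaged 17.0 ± 0.46 in Wls fl/fl hearts and 17.3 ± 4.57 in control hearts (SD, n = 3 each). Ube2c, its ubiquitin-conjugating enzyme, averaged 15.9 ± 0.57 in Wls fl/fl hearts and 14.8 ± 4.33 in control hearts. Cdca3, a trigger of mitotic entry, was under the filter. The log2 changes of the 2 tested genes were 0.01 and 0.13.

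Centromere and kinetochore genes were mixed. Cenpa, the histone variant that marks centromeres, had 121, 109 and 126 in Wls fl/fl hearts and 111, 90.8 and 97.8 in control hearts, with overlap (log2 change 0.25, SE 0.12, limma adjusted p = 0.294). Cenpe, a kinetochore motor, differed by 0.59, Cenpf, a large kinetochore protein, by 0.08, and Ndc80, which grips microtubules, by -0.03, all with overlapping groups. Nuf2, the partner of Ndc80, was under the filter with groups that did not overlap, at 8.90, 7.98 and 11.2 in Wls fl/fl hearts and 5.54, 5.34 and 5.07 in control hearts.

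Kinesin motors slide and cross-link spindle microtubules. Kif11, which pushes the spindle poles apart, differed by 0.52, Kif20b by 0.78 and Kif23, a motor of the central spindle, by 0.37, all 3 without overlap of the groups and none called. In the shallow control replicate 1 these 3 genes had 2, 1 and 3 reads, and edgeR gave smaller log2 changes of 0.29, 0.26 and 0.23. Kif20a, another motor of late mitosis, was lower in Wls fl/fl hearts, at 15.9, 14.6 and 19.4 against 38.8, 17.5 and 13.8 in control hearts. The highest control value was 7 reads of the shallow replicate 1. Kif2c, which takes microtubules apart, and Kif4, a motor on chromosome arms, were under the filter.

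Of 5 spindle assembly and midzone genes, 4 were tested, all higher in Wls fl/fl hearts without a call by limma. Ckap2l, a spindle protein, had 17.8, 18.0 and 17.9 in Wls fl/fl hearts and 0, 8.39 and 13.0 in control hearts. The groups did not overlap (log2 change 1.89, SE 0.86, limma adjusted p = 0.270), but the 0 belongs to the shallow library, where the limit of detection is coarse, and edgeR gave 0.83 (adjusted p = 0.132). Tpx2, which starts microtubule growth around chromosomes and activates Aurora A, had 25.4, 31.3 and 25.4 in Wls fl/fl hearts and 22.2, 9.15 and 15.9 in control hearts. It did not overlap between groups (log2 change 0.83, SE 0.33, limma adjusted p = 0.203), and edgeR called it (log2 change 1.03, adjusted p = 0.0256). Nusap1 and Prc1, which bundle microtubules, differed by 0.25 and 0.11 with overlap, and Hmmr, a spindle and hyaluronan-binding protein, was under the filter.

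The cytokinesis genes were all tested, and all 3 were higher in Wls fl/fl hearts without a call. Anln, which encodes the ring scaffold anillin, had 56.6, 39.9 and 41.9 in Wls fl/fl hearts and 16.6, 34.3 and 31.1 in control hearts, without overlap (log2 change 0.78, SE 0.29, limma adjusted p = 0.175). The lowest control value was 3 reads of the shallow replicate 1. Without that library the log2 change by limma was 0.47, and edgeR on all 6 libraries gave 0.55. Racgap1 and Ect2, which place and switch on the contractile ring, differed by 0.44 and 0.33 with overlapping groups.

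**Figure D3:**
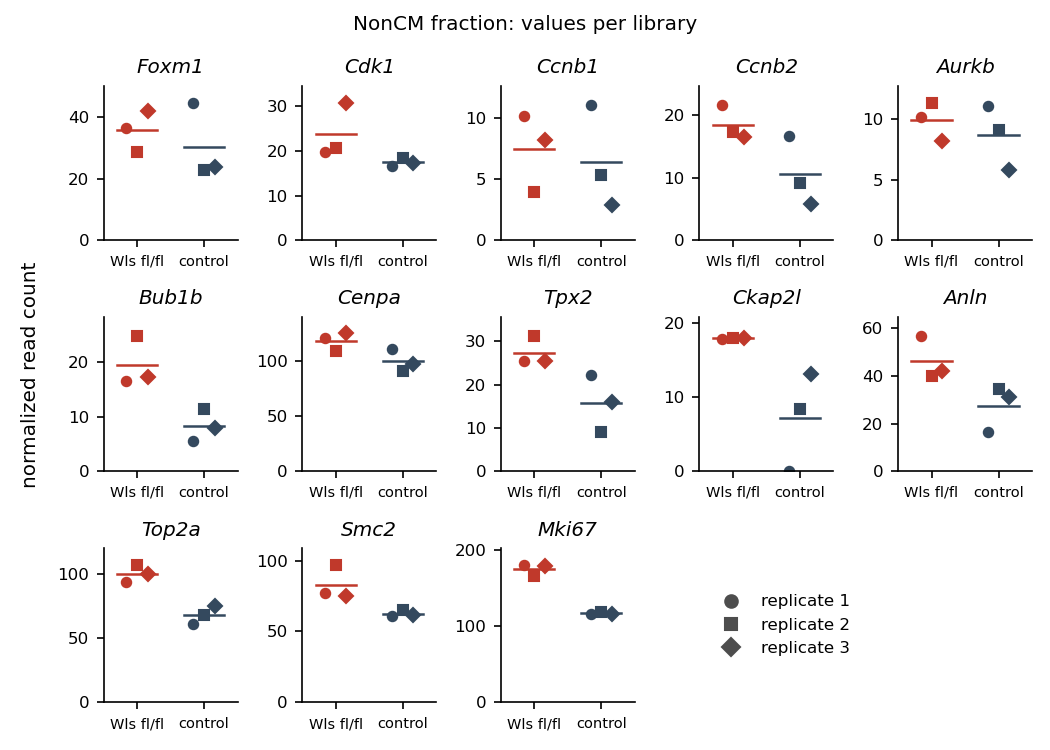
Normalized read counts in each NonCM library for 13 of the genes, Wls fl/fl left of control, with marker shapes for replicates 1 to 3 and lines at the group means of 3 libraries. Mki67 and Top2a separate the groups with little spread, while control replicate 1 (circles), in which 1 read equals 5.54, gives the highest or the lowest control value of several low genes.

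The 12 members under the filter in NonCM were counted together. They had 162, 142 and 144 reads in Wls fl/fl hearts and 13, 85 and 90 reads in control hearts, or summed normalized read counts of 103, 94.5 and 108 against 72.1, 64.8 and 65.2. Their sums did not overlap between groups. One by one, 2 of the 12 genes, Birc5 and Nuf2, had all Wls fl/fl libraries above all controls, against 13.9% of all genes tested.

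Of the 40 genes, 12 share exon bases with another gene of the GENCODE M21 annotation, and whether the authors counted by strand is not given in the sources used here. Kif20a shares 29.3% of its exon bases with Cdc23 on the opposite strand, and Ube2c shares 22.8% with Tnnc2, a muscle troponin gene, also on the opposite strand. Kif4, Ccna2 and Prc1 share 15.1%, 12.5% and 11.1% with opposite-strand genes. The remaining 7, Top2a among them, share 7.09% or less. Without strand, reads in the shared bases cannot be assigned to one gene.

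The promoters of the genes are shown because members that act in the same hours of the cycle are known to share promoter elements. The CHR (cell cycle genes homology region), with the letters TTTGAA, is bound by MuvB complexes, which hold these genes silent in resting cells and, with B-Myb and Foxm1, switch them on in G2. The CCAAT box is bound by the activator NF-Y. RefSeq promoter windows on GRCm38.p6, from 250 bases before the start of transcription to 50 bases from it on, were matched for 34 of the 40 genes, 2 of which have 2 windows. Shown are 5 of them, the 4 with a window among the 5 genes that edgeR called and that of Cdk1, each 5′ to 3′ on the gene's own strand. Capitals mark TTTGAA, its variant TTCGAA and CCAAT, found on either strand, so that TTCAAA and ATTGG are the same motifs read from the other strand. TTCGAA reads the same on both strands, no motif contains another, and neighbouring copies may share a base. Mki67 lies on the minus strand (chr7:135716330-135716629), as do Top2a (chr11:99024140-99024439), Ccnb2 (chr9:70421505-70421804) and Cdk1 (chr10:69352863-69353162), and Bub1b lies on the plus strand (chr2:118597961-118598260).
Mki67: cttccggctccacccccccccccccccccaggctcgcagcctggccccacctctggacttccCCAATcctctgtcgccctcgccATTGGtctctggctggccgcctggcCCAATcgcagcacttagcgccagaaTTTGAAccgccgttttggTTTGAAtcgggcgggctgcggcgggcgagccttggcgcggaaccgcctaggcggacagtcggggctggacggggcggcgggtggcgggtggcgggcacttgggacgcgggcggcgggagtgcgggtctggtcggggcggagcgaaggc
Top2a: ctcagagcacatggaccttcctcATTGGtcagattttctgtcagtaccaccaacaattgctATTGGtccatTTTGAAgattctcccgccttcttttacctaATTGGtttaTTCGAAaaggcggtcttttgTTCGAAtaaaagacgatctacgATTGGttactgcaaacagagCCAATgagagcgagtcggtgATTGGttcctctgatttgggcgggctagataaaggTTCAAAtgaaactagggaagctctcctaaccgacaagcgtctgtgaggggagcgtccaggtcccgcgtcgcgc
Bub1b: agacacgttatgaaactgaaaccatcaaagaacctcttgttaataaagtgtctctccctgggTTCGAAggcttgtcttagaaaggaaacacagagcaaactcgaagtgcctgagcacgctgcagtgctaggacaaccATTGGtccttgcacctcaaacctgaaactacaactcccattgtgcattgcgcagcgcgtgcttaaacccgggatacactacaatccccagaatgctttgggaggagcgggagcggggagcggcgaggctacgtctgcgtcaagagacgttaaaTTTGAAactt
Ccnb2: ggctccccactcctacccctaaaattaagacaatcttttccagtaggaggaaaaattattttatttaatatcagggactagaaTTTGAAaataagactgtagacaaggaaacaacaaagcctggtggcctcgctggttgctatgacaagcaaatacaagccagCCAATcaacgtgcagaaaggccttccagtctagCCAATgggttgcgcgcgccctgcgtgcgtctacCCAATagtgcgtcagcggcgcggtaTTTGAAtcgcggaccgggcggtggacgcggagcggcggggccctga
Cdk1: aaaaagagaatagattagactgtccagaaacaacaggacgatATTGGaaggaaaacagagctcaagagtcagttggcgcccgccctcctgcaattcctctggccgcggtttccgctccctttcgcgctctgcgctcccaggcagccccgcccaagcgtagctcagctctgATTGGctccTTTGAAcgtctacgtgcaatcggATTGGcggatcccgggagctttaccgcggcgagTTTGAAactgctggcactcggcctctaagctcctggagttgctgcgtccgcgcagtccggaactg

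The CHR letters stood in 29 of the 36 windows (80.6%), against 17.9% of 32851 windows of all genes. The CCAAT box stood in 28 windows (77.8%, against 37.4% of all), at least 2 copies of it in 52.8% (against 11.7%), and a CHR together with a CCAAT box in 69.4% (against 6.95%). The variant TTCGAA was found in 8.33%, against 1.56% of all. A match of letters describes a window and does not show that a factor binds there.

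The CHR also lay close to the start. It stood wholly within 50 bases of the start in 75.0% of the members' windows and in 4.94% of all windows. In Ccnb2 one copy begins at base 5 after the start, behind 3 CCAAT boxes at 87, 54 and 21 bases before it. In Bub1b it begins at base 41 and in Cdk1 at 71 and 15 bases before the start, while both Mki67 copies lie farther out, at 116 and 98 bases before it. Top2a has 6 CCAAT boxes. Neither CHR form was found in the windows of Ccnb1, Birc5, Melk, Cenpe, Nuf2 and Nusap1, and 4 of these, Birc5, Melk, Nuf2 and Nusap1, had none of the 3 motifs. That says only that these letters are not in these windows. Of 40 windows of S phase genes 10% held the CHR, and of 67 windows of further mitosis genes 49.3% did. A CHR within 50 bases of the start stood in 5% of the S phase windows and 38.8% of the further mitosis windows. The CCAAT box stood in 55% and 70.1% of them.

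**Figure D4:**
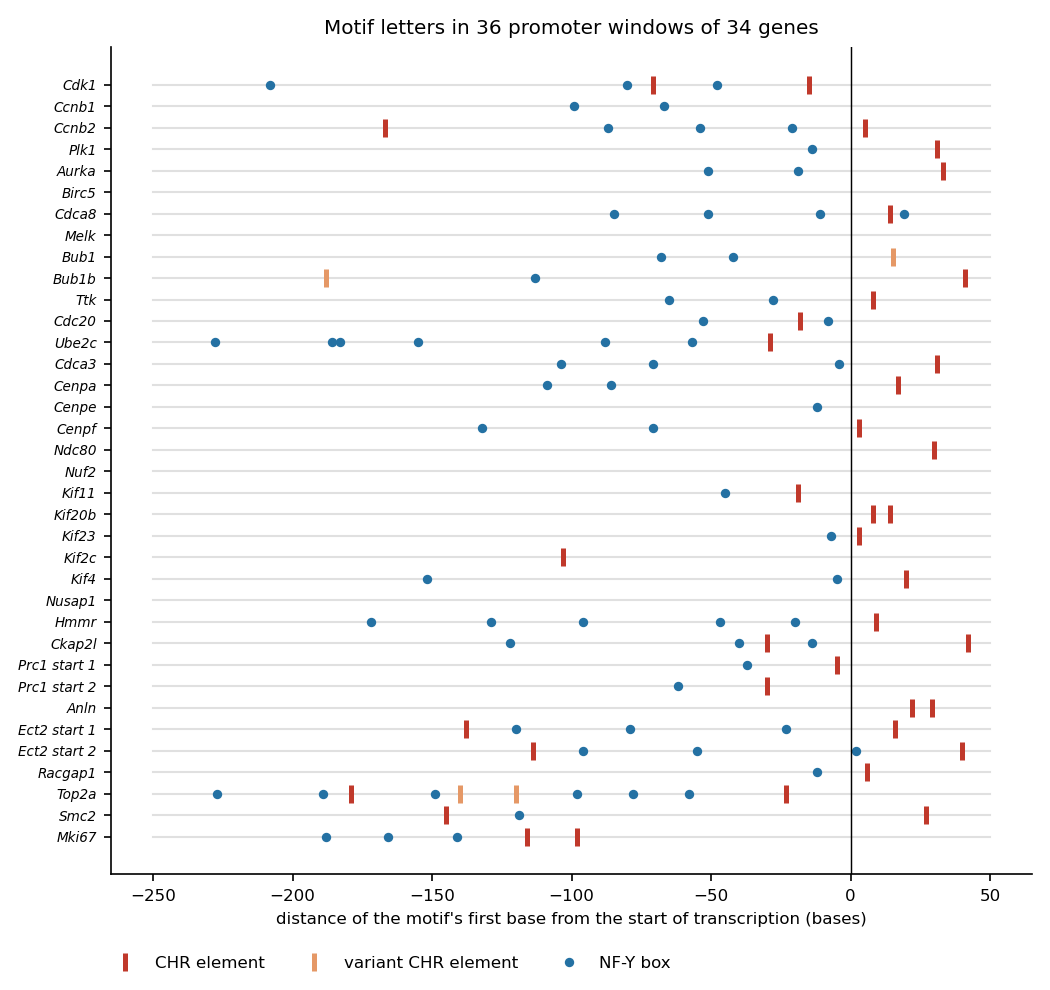
Position of the CHR element, its variant and the NF-Y box (the CCAAT motif) in 36 promoter windows of 34 of the genes, as the distance in bases of the motif's first base from the start of transcription. Red marks crowd around the start and blue marks mostly lie upstream of them, with 75.0% of windows holding a CHR within 50 bases of the start.

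In CM, most of the genes were too low to test. A mean of 10 or more was reached by 6, Mki67, Top2a, Smc2, Smc4, Cenpa and Cenpf, and all 6 were higher in Wls fl/fl hearts, with a median log2 change of 0.33 against 0.00 for all 11944 genes. None was called by limma, edgeR or DESeq2, and 1, Mki67, had an unadjusted p under 0.05 by limma and by edgeR. Over all genes limma called 0.067% up and 0.0251% down, so few calls were made in CM at all. Without control replicate 2 the median was 0.16, and 5 of 6 were higher.

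Mki67 had normalized read counts of 32.9, 31.3 and 38.8 in CM of Wls fl/fl hearts and 19.4, 22.2 and 25.3 in CM of control hearts. It was the 1 tested member whose groups did not overlap, against 7.97% of all genes, and its log2 change was 0.60 (SE 0.20, limma adjusted p = 0.446). Top2a had 16.4, 14.6 and 12.9 in Wls fl/fl hearts and 15.3, 7.40 and 10.7 in control hearts (log2 change 0.41, SE 0.32, limma adjusted p = 0.738). Smc2 had 32.9, 25.0 and 38.2 in Wls fl/fl hearts and 23.5, 28.4 and 19.5 in control hearts (log2 change 0.41, SE 0.23, limma adjusted p = 0.645). Both overlapped between groups, as did Cenpa, with 110, 117 and 109 in Wls fl/fl hearts and 120, 79.0 and 86.6 in control hearts (log2 change 0.26, SE 0.14, limma adjusted p = 0.645).

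Cenpf varied most among CM controls, at 165, 56.8 and 115, with 125, 124 and 111 in Wls fl/fl hearts. The other 34 genes had at most 21 reads in any CM library. Foxm1, just under the filter at a mean of 9.73, had 11.7, 12.5 and 12.3 in Wls fl/fl hearts and 7.15, 4.94 and 9.73 in control hearts, without overlap. Anln was the other gene under the filter whose groups did not overlap, at 5.87, 9.38 and 9.06 in Wls fl/fl hearts and 4.09, 3.70 and 5.84 in control hearts. Foxm1 and Anln were the only such genes of the 34, while 7.97% of all genes tested in CM had Wls fl/fl higher without overlap. Cdk1, Ccnb1, Ccnb2, Aurkb, Bub1b, Tpx2 and Ckap2l ran from 0 to 9.40 in the CM libraries, and their groups overlapped.

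Whether the genotype acted differently in the 2 fractions was asked of the 6 members that passed the filter in both. By limma's interaction of fraction and genotype over 12 libraries, 0 of 6 were called and 0 had an unadjusted p under 0.05, and edgeR gave the same counts, while limma called 1.7% of 11820 genes. The change of Mki67 in NonCM minus that in CM was -0.02 on the log2 scale (SE 0.19), and that of Top2a was 0.14 (SE 0.32). A difference between fractions in the genotype effect was not detected for these genes, which does not show that the effects were alike.

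The fractions themselves differed. In control hearts the 40 genes took 2.08 times the RPM in NonCM that they took in CM (187 ± 13.2 RPM in NonCM against 89.8 ± 10.4 RPM in CM, SD, n = 3 each). Of 23 members with a mean of 1 RPM or more over the control libraries of both fractions, 22 were higher in NonCM. By limma 19 were called so, against 36.7% of 13702 genes, and 0 were called lower. A gene could pass that filter through NonCM alone, as Kif23 did at 3.24 RPM in NonCM and 0.562 in CM, and the counts include such members. At a mean of 5 RPM or more, limma called 4 of 6 members higher, against 4008 of 10307 genes. EdgeR called 18 of the 23 higher and 0 lower, against 26.8% of all genes higher and 26.1% lower. Their median log2 difference, NonCM minus CM on the log2(RPM + 1) scale, was 1.07 against 0.21 for all genes. By edgeR's log2 change the members' median was 1.41, against -0.0018 for all genes. Without replicate 3 of both fractions limma called 11 members higher. Of all 13702 genes it then called 3263 higher, against 5035 with all control libraries.

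Mki67 had 17.6 ± 0.44 RPM in NonCM and 3.51 ± 0.46 in CM (SD, n = 3 each), a log2 difference of 2.05 (SE 0.15, limma adjusted p = 1.35e-06). Top2a had 10.2 ± 0.91 in NonCM and 1.76 ± 0.63 in CM, a difference of 2.05 (SE 0.21). Anln, at 4.08 in NonCM and 0.716 in CM, and Kif23, at 3.24 in NonCM and 0.562 in CM, followed with 1.54 and 1.43. Melk, Bub1 and Ttk had 12, 11 and 16 reads in the NonCM controls and 0 in 17880911 reads of the CM controls. Their pooled NonCM levels were 3.69, 3.38 and 4.92 times a floor of 3 reads over the CM control group, or 0.168 RPM. These ratios leave out the counting error of the few NonCM reads, and the groups of Bub1 overlapped.

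Cenpa and Cenpf did not follow the others. Cenpa had 15.0 ± 2.02 RPM in NonCM and 15.0 ± 3.45 in CM, and Cenpf had 15.7 ± 3.74 in NonCM and 17.7 ± 8.56 in CM (SD, n = 3 each). Their log2 differences were 0.02 (SE 0.17) and -0.07 (SE 0.31), and both groups overlapped. Smc4 differed by 0.81 and was called, at 51.8 ± 5.17 in NonCM and 29.1 ± 2.80 in CM. None of these 3 genes shares exon bases with another gene in the annotation.

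**Figure D5:**
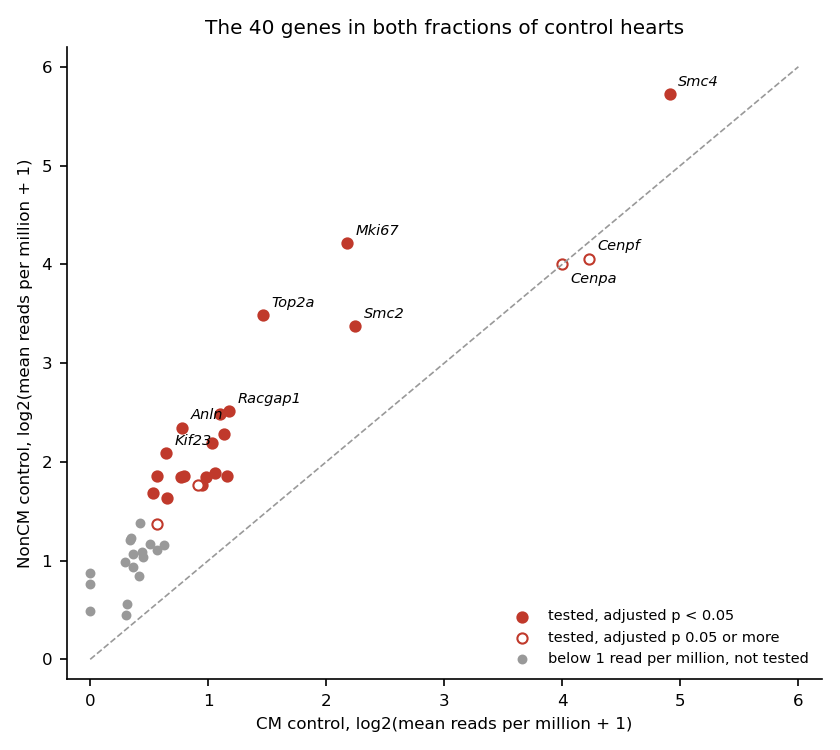
Mean RPM of the 40 genes in NonCM (vertical axis) and CM (horizontal axis) of control hearts, 3 libraries each, as log2(mean + 1), with a dashed line of equal level. Filled red points passed limma's test of NonCM against CM, and Cenpa and Cenpf lie at the line while Mki67 and Top2a lie far above it.

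Further cell cycle genes, in lists chosen from textbook roles with earlier results of these data known, showed smaller differences in NonCM. Of 74 further mitosis genes 37 were tested, 30 were higher in Wls fl/fl hearts and 0 were called by limma, with a median log2 change of 0.12. At an unadjusted p under 0.05 in either direction were 4 of the 37, against 19.3% of all genes. The 2 of smallest p were Aspm, a spindle pole protein, at 1.26 (SE 0.41, limma adjusted p = 0.133), and Casc5, a kinetochore scaffold, at 0.84 (SE 0.29, adjusted p = 0.146). Of 45 S phase and DNA replication genes, which act in the phase before, 39 were tested, 24 were higher and 0 were called, with a median of 0.09. At an unadjusted p under 0.05 were 7 of the 39, again against 19.3% of all genes. Cdt1, which loads the replicative helicase, differed by 0.90 (SE 0.26, limma adjusted p = 0.0895), and Mcm6, a subunit of that helicase, by 0.50 (SE 0.15, adjusted p = 0.106).

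Regulators of the set were close to level. Of 22 genes of MuvB, B-Myb and E2F complexes 21 were tested in NonCM, 13 were higher and 0 were called by limma, with 2 at an unadjusted p under 0.05 and a median log2 change of 0.04. Nfya, the subunit of NF-Y that contacts the CCAAT box, differed by 0.26 (SE 0.09, limma adjusted p = 0.167), and E2f1, an activator of S phase genes, by 0.61 (SE 0.25, adjusted p = 0.216). Of 19 Cdk inhibitors and D and E cyclins 16 were tested, 11 were higher and 1 was called up. That was Btg2, an antiproliferative gene, with normalized read counts of 1754, 2309 and 2150 in NonCM of Wls fl/fl hearts and 1364, 1582 and 1581 in NonCM of control hearts (log2 change 0.45, SE 0.10, limma adjusted p = 0.0399). In CM 0 genes of these 4 lists were called by limma, with 1, 0, 2 and 2 at an unadjusted p under 0.05 among 25 further mitosis genes, 18 regulators, 16 inhibitors and cyclins and 32 S phase genes tested, against 8.74% of all genes.

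Markers of cell types also differed between genotypes in NonCM, some higher and some lower in Wls fl/fl hearts. Fibroblast markers summed to 17439 to 18418 RPM in NonCM of Wls fl/fl hearts and 12480 to 13060 in NonCM of control hearts, and 7 of 10 were called up by limma. Macrophage markers summed to 1873 to 2031 in Wls fl/fl hearts and 1322 to 1667 in control hearts, with 2 of 10 called up, and lymphocyte markers to 52.9 to 58.6 in Wls fl/fl hearts and 37.1 to 43.2 in control hearts, with 1 of the 2 tested called up. Neutrophil markers ranged widely in Wls fl/fl hearts, from 25.6 to 121, against 12.1 to 17.6 in control hearts, with 1 of the 7 tested called up and 6 of 7 at an unadjusted p under 0.05. Cardiomyocyte markers were lower in Wls fl/fl hearts (9 of 12 called down), and so were endothelial markers, at 2685 to 2723 in Wls fl/fl hearts and 2903 to 3063 in control hearts (1 of 10 called down). Smooth muscle and pericyte markers summed to 2696 to 2761 in Wls fl/fl hearts and 2943 to 3032 in control hearts (2 of 10 called down), and erythroid markers overlapped, at 305 to 804 in Wls fl/fl hearts and 357 to 695 in control hearts. No marker was at 0 in all NonCM libraries. The part of these markers in the higher values of the mitosis genes was not tested.

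In CM the marker sums were closer. Fibroblast markers summed to 1313 to 1621 RPM in CM of Wls fl/fl hearts and 1372 to 1451 in CM of control hearts, and macrophage markers to 61.2 to 67.0 in Wls fl/fl hearts and 59.3 to 68.8 in control hearts. Endothelial markers summed to 1558 to 1760 in Wls fl/fl hearts and 1670 to 1823 in control hearts. No tested marker of any of the 8 lists was called by limma in CM, and Epb42 (erythroid), Ly6g and Mpo (neutrophil) had no read in any CM library.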

How the data were processed

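RNA-seq libraries from 12 samples were grouped by the fraction and genotype in the labels, 3 per group. The submitters' processing notes name STAR, DESeq2 and mm10, without versions, and say nothing of annotation or counting. For each fraction 1 table was deposited, with signal values, which are read counts that the authors divided by a size factor within that table, so the tables were tested apart. Per the file headers they also hold the authors' log2 fold changes and the authors' p-values. All values (100%) were whole multiples of 1 read to a tolerance of 0.01, and those reads gave depths and RPM.

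The main test was limma 3.58.1 in R 4.3.3 (lmFit and trended eBayes), taking log2(value + 1) for genes averaging 10 or more, adjusted by Benjamini-Hochberg over all genes at 0.05. The interaction used the same scale over 12 libraries. NonCM and CM of control hearts were compared on log2(RPM + 1), at a mean of 1 or more, since the tables had been scaled separately. The scripts were tested on simulated data.

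Alternatives were TMM and upper-quartile scaling, other filters and pseudocounts, edgeR 4.0.16, DESeq2 1.42.0 and limma-voom (all 3 from the recovered reads), omission of each library, both replicates 1 or 3 left out, and an adjusted p of 0.1. EdgeR without replicates 3 was added after the data were seen. Members and lists were chosen with earlier results of these data known. Values in every library were given for the 8 members of smallest p in NonCM, the 4 in CM, and Mki67, Top2a, Cdk1, Ccnb1, Aurkb and Foxm1. Of each further list, up to 4 called genes, or the 2 of smallest p, were named. Library values of other genes (Birc5, Nuf2, Kif20a and Cenpf) were added after they were seen. Motifs were counted in RefSeq promoters of GRCm38.p6, and exon overlap in GENCODE M21 on GRCm38.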

Additional observations from a re-analysis of the deposited data

How the results depend on the processing

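The members' median in NonCM stayed above 0 under every alternative run, and the calls varied. The 2 calls became 1 under TMM scaling, upper-quartile scaling, no filter and DESeq2 (where 9 members had an adjusted p), and 5 with edgeR, limma-voom or both replicates 1 left out. They became 0 with both replicates 3 left out, by limma and by edgeR, and ranged from 0 to 5 with each library left out in turn. The calls up over all genes then ranged from 64 to 872. The median log2 change of 0.42 became 0.37 under upper-quartile scaling, 0.32 at a mean of 50 or more, 0.35 with a pseudocount of 5, 0.38 with edgeR, 0.36 with limma-voom and 0.32 with both replicates 1 left out, and ranged from 0.34 to 0.49 with each library left out. At a mean of 50 or more 6 members were left, all 6 higher. In CM, 32 of 40 members were higher without a filter and 3 of 3 at a mean of 50 or more, and the median of 0.33 became 0.49 with both replicates 1 left out and 0.17 with edgeR and both replicates 3 left out, with a range from 0.16 to 0.47 over single libraries. The 19 members called higher in NonCM than in CM of control hearts became 4 of 6 at 5 or more RPM and 11 with all replicates 3 left out, and ranged from 14 to 19 over single libraries. Of all genes, 4008 of 10307 and 3263 of 13702 were called higher in the first 2 settings, and 4234 to 5309 over single libraries. The 0 calls for the interaction stayed 0 in the alternatives run. Some of these could hardly give another count. Limma called 0 of all 11820 genes without NonCM Wls fl/fl replicate 2 or 3, NonCM control replicate 3 or CM Wls fl/fl replicate 3. It called 1 with all replicates 3 left out. Where fewer genes or libraries entered, that is how the alternative was built, and for the rest the cause was not tested.

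No paired analysis was possible because no label pairs libraries across groups. Depth limits the set, since 34 members in CM and 12 in NonCM lay under the filter, and 1 read of NonCM control replicate 1 is worth 5.54.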
